A study of Mus musculus with 40 samples.

Results

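Midbrain RNA of MPTP-treated mice that received SUEHP together with the cannabinoid receptor antagonist SR141716A (MPTP-SU+S, 4 samples) was compared with midbrain RNA of MPTP-treated mice that received the vehicle (MPTP-Veh, 4 samples), that is 8 of the 40 samples of the series. The samples were assigned to the groups by their titles. The mice were male C57BL/6N aged 8 weeks, and both groups were given MPTP intraperitoneally at 20 mg/kg, every 2 h for 4 injections. From 1 week later, MPTP-SU+S mice were given SUEHP at the acupoint GB34 (GB35 in one description of that group) 2 times a week for 4 injections, with SR141716A at 3 mg/kg, which the titles spell SR141714A and which was given before SUEHP in the study's methods and together with it in the labels. The vehicle of MPTP-Veh mice was saline at GB34, so SUEHP and SR141716A differ together between both groups. In the methods, SR141716A was injected intraperitoneally in a solvent that held ethanol. No such injection is described for MPTP-Veh mice, so the injection and its solvent may differ between the groups too. No group was given SR141716A without SUEHP. The sources used here do not tie a library to an animal, so the p-values measure the spread between these samples, which may be technical in part.

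MPTP is a toxin whose oxidation product is taken up by dopaminergic neurons through the dopamine transporter and inhibits complex I of the respiratory chain. SUEHP is a herbal pharmacopuncture preparation that contains deer antler extract. SR141716A blocks CB1, the Gi/o-coupled cannabinoid receptor encoded by Cnr1, which sits mainly on presynaptic terminals and lowers transmitter release. In a piece of tissue, fewer cells of a type and less RNA per cell cannot be told apart.

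Single libraries stood apart before any comparison. MPTP-Veh replicate 4 had 11958200 counts, the lowest total of the 8 libraries (highest 15998123), and 1.35% of its counts lay on the 13 mitochondrially encoded protein genes (95% Wilson interval 1.35% to 1.36%, counting error only), against 10.6% to 15.9% in the other MPTP-Veh libraries and 10.7% to 17.5% in MPTP-SU+S. Its summed CPM was 37777 for 20 oligodendrocyte markers and 2529 for 6 red blood cell markers, where the other MPTP-Veh libraries held 13187 to 16161 and 241 to 377. The comparison with MPTP-Veh is therefore given with and without it. MPTP-Veh replicate 1 held 697 CPM of hypothalamus markers, against 111 to 195 in the other MPTP-Veh libraries and 88.0 to 120 in MPTP-SU+S. Of the 697 CPM, 656 were Pomc alone, a hormone precursor described below. A list of 26 liver genes summed to 47.9, 31.5, 35.1 and 533 CPM in MPTP-Veh replicates 1 to 4 and to 3.04 to 4.06 CPM in MPTP-SU+S. It summed to 23.7 to 56.6 CPM in the midbrains of Con mice, which were given saline in place of MPTP and saline at GB34, and to 2.71 to 4.56 CPM over all 12 libraries of the SUEHP groups. RNA of liver type thus separated Con and MPTP-Veh from the 3 SUEHP groups, in the same way as SUEHP itself, and its part in the results below was not tested. The midbrain genes Th and Slc6a3, which mark dopaminergic neurons, were present in all 8 libraries, at 17 to 109.7 CPM and 17.7 to 110.3 CPM.

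**Figure D1:**
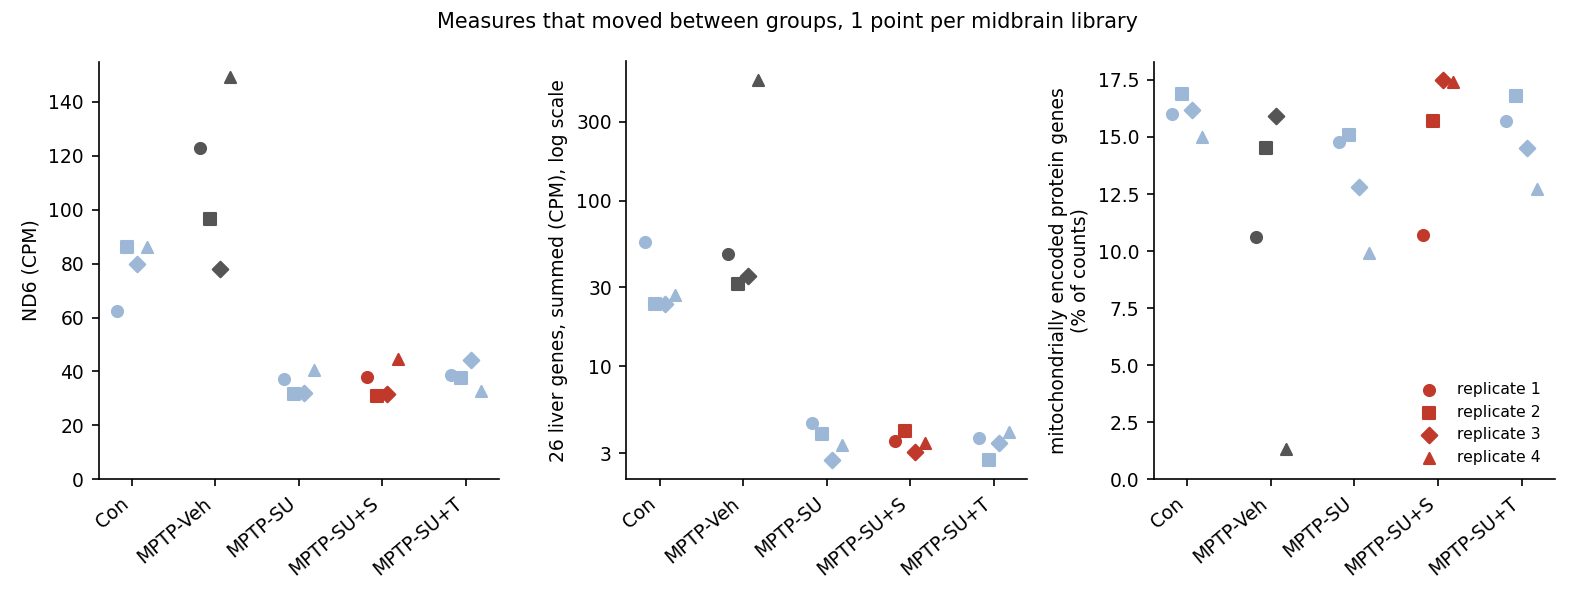
Level of ND6 (CPM, left), summed level of 26 liver genes (CPM on a log scale, middle) and share of counts on the mitochondrially encoded protein genes (percent, right), with 1 point for each of the 20 midbrain libraries and a marker shape for each replicate number. ND6 and the liver genes are lower in every library of the 3 SUEHP groups than in every Con and MPTP-Veh library, and MPTP-Veh replicate 4 lies at 1.35% on the right.

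More genes fell than rose in MPTP-SU+S. Several of the lists examined held genes that fell with and without MPTP-Veh replicate 4, among them those of splicing factors, snoRNA host genes and complex I subunits. Differences between the lists were not tested. The light-strand gene ND6 fell 3.08-fold with all libraries. With all libraries, 942 of 16629 genes tested (5.66%) passed the threshold of an adjusted p-value below 0.05 with a fold change above 1.5 (edgeR's quasi-likelihood test, Benjamini-Hochberg adjustment over all genes). Of these, 151 (0.908%) rose and 791 (4.76%) fell. Without MPTP-Veh replicate 4, 237 of 16831 genes (1.41%) passed, of which 62 (0.368%) rose and 175 (1.04%) fell. The counts of each list below stand against these shares over all genes. In the same direction in both fits were 200 genes, which is 21.2% of the first set and 84.4% of the second. The 4 MPTP-SU+S values lay entirely above the 4 MPTP-Veh values for 1472 genes (8.85%) and entirely below for 1495 (8.99%).

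The number of genes called was unstable. A model of the 8 libraries alone called 0 genes, although 2283 had an unadjusted p-value under 0.05. Its common dispersion was 0.0862, against 0.0512 in the model of all 20 libraries. When MPTP-Veh replicate 4 was left out of those 8, it called 215 genes at a dispersion of 0.0173. Without MPTP-SU+S replicates 1, 2, 3 and 4 the count was 604, 69, 84 and 162, and without MPTP-Veh replicates 1, 2 and 3 it was 1596, 2059 and 2475. DESeq2 called 1605 genes with all libraries and 202 without MPTP-Veh replicate 4, and limma-voom called 402 and 230. Of the 24 genes chosen by rule and described below, all kept their direction in every setting that tested them. Their choice for no overlap between the groups largely fixes this. Of the 24, 13, 13 and 17 were still called without MPTP-SU+S replicates 2, 3 and 4, and 14 without MPTP-Veh replicates 1 and 4. The 158 genes that fell in both fits had shorter transcripts (median 2310 bases over those with a value) than all genes tested (3350 bases), and the 42 that rose had longer ones (4327 bases) of lower GC content (41.8% against 49.7%). With a trend on GC content and length removed from each library, 638 of the 942 calls were made again. Of the genes chosen by rule, the 12 that fell were all called again, and 7 of the 12 that rose were not (Gclm, Zc3h12c, Bche, Ccne2, Ackr3, Styx and Zik1).

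**Figure D2:**
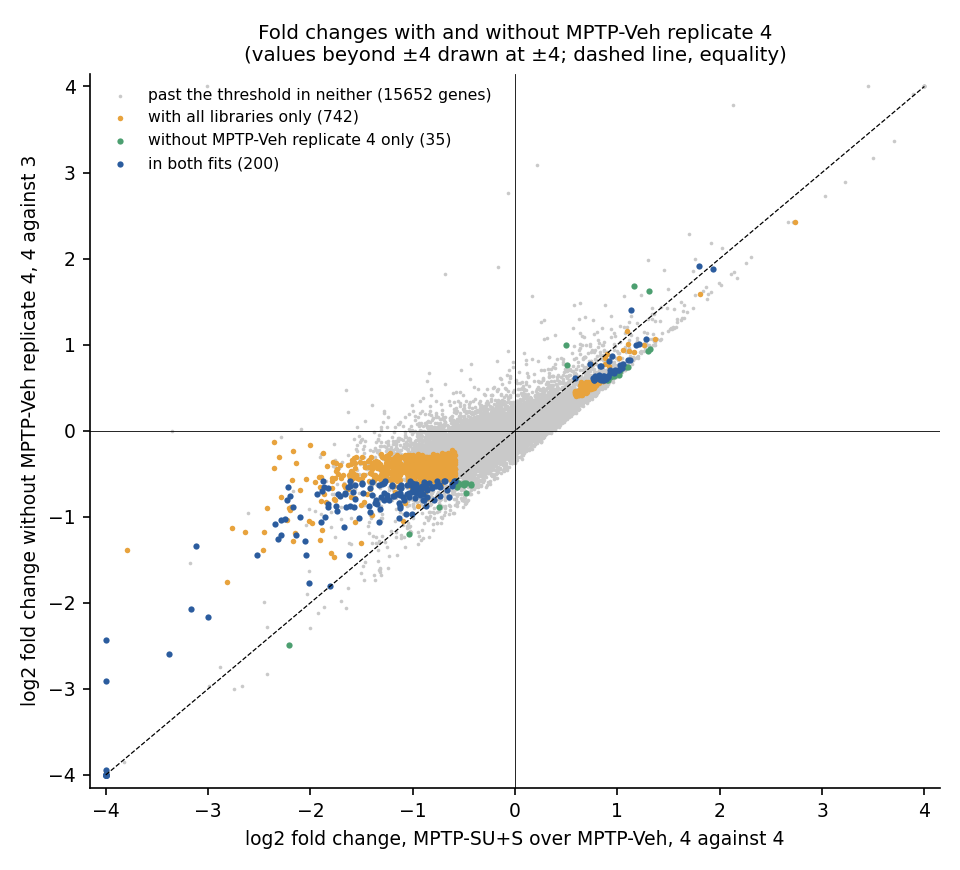
Log2 fold change of each gene tested, MPTP-SU+S over MPTP-Veh, with all libraries (horizontal) against the fit without MPTP-Veh replicate 4 (vertical), coloured by whether the gene passed the threshold in one or both fits. Most genes that passed only with all libraries lie nearer 0 on the vertical axis, and 200 passed in both fits.

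The genes described first are those with the smallest p-values among genes that passed in both fits, did not overlap between the groups and reached 5 CPM, ordered by what they are known to do. ND6 had the smallest p-value of them in the fit of all libraries. Its level was 123, 96.5, 78.1 and 149 CPM in MPTP-Veh and 38.0, 30.8, 31.5 and 44.7 CPM in MPTP-SU+S. The lowest MPTP-Veh library was thus above the highest MPTP-SU+S library by a wide margin. The log2 fold change was -1.62 (SE 0.18, adjusted p = 0.00046), and -1.45 (SE 0.16, adjusted p = 5.9e-05) without replicate 4. ND6 is a complex I subunit and the sole protein gene transcribed from the mitochondrial light strand. Of the 13 mitochondrially encoded protein genes, ND6 alone passed the threshold, and 12 of the 13 had positive log2 fold changes (median 0.49, and 0.14 without replicate 4, where 9 were positive). Con libraries held 62.5 to 86.3 CPM of ND6. The 8 light-strand transfer RNA genes, a list added after their values had been seen, also had negative fold changes. The libraries were poly(A)-selected, and the part of that selection in the levels of ND6 and these transfer RNA genes was not tested. Of the 9 light-strand genes together, 8 passed with all libraries and 2 (ND6 and TrnP) without replicate 4, and their summed level was 206, 158, 117 and 595 CPM in MPTP-Veh replicates 1 to 4 and 51.9 to 95 CPM in MPTP-SU+S.

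Hmgn3, a nucleosome-binding protein of the HMGN family, measured 49.1, 48.5, 50.1 and 47.3 CPM in MPTP-Veh and 29.7, 31.5, 30.5 and 30.7 CPM in MPTP-SU+S. Both groups were tight, and for this gene replicate 4 lay just under the other MPTP-Veh libraries, towards MPTP-SU+S. The log2 fold change of Hmgn3 was -0.67 (SE 0.09, adjusted p = 0.00216) with all libraries and -0.69 (SE 0.09, adjusted p = 0.00018) without replicate 4. Leo1, a subunit of the PAF1 elongation complex, measured 42.8, 46.9, 42.4 and 41.3 CPM in MPTP-Veh and 27.0, 28.6, 27.8 and 29.4 CPM in MPTP-SU+S, with the same absence of overlap (log2 fold change -0.62 and -0.64). Cfdp1, a chromatin-associated protein, fell from 138 ± 43.2 to 63.6 ± 8.51 CPM (SD, n = 4), and the log2 fold change was -1.12, or -0.88 without replicate 4, in which it measured 202 CPM. Sdccag8, a protein of the centrosome and cilium base, fell from 25.0 ± 5.04 to 14.3 ± 1.26 CPM (log2 fold change -0.81, and -0.66 without replicate 4).

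Hnrnph3, an RNA-binding hnRNP, measured 49.7, 42.8, 49.2 and 59.9 CPM in MPTP-Veh and 33.8, 27.3, 23.0 and 26.9 CPM in MPTP-SU+S. Hnrnpa1, which binds splice sites and shuttles messenger RNA, measured 242, 223, 216 and 302 CPM in MPTP-Veh and 151, 147, 142 and 148 CPM in MPTP-SU+S. Neither gene overlapped between the groups. Their log2 fold changes were -0.86 and -0.74, and -0.77 and -0.63 without replicate 4. Pnn, a nuclear speckle protein, fell from 157 ± 14.0 to 95 ± 6.85 CPM (log2 fold change -0.73, and -0.76 without replicate 4). Ik and Prpf38b, which take part in splicing, fell by 0.81 and 0.69 on the log2 scale, and by 0.67 and 0.59 without replicate 4. Sltm, a relative of the scaffold attachment factors, fell by 0.90, and by 0.74 without replicate 4. Adjusted p-values of these 6 genes were 0.00216 to 0.00263 with all libraries. In the list of 44 hnRNP and SR splicing factor genes, all of them tested, 6 fell and 1 rose with all libraries. Without replicate 4, 4 fell (Hnrnph3, Pnn, Hnrnpa1 and Hnrnpm) and 0 rose. Lower values were found for 33 of the 44 in either fit, with a median log2 fold change of -0.25 and -0.23, where the median over all genes was 0 and 0.02 and 8361 of 16629 genes were lower with all libraries.

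**Figure D3:**
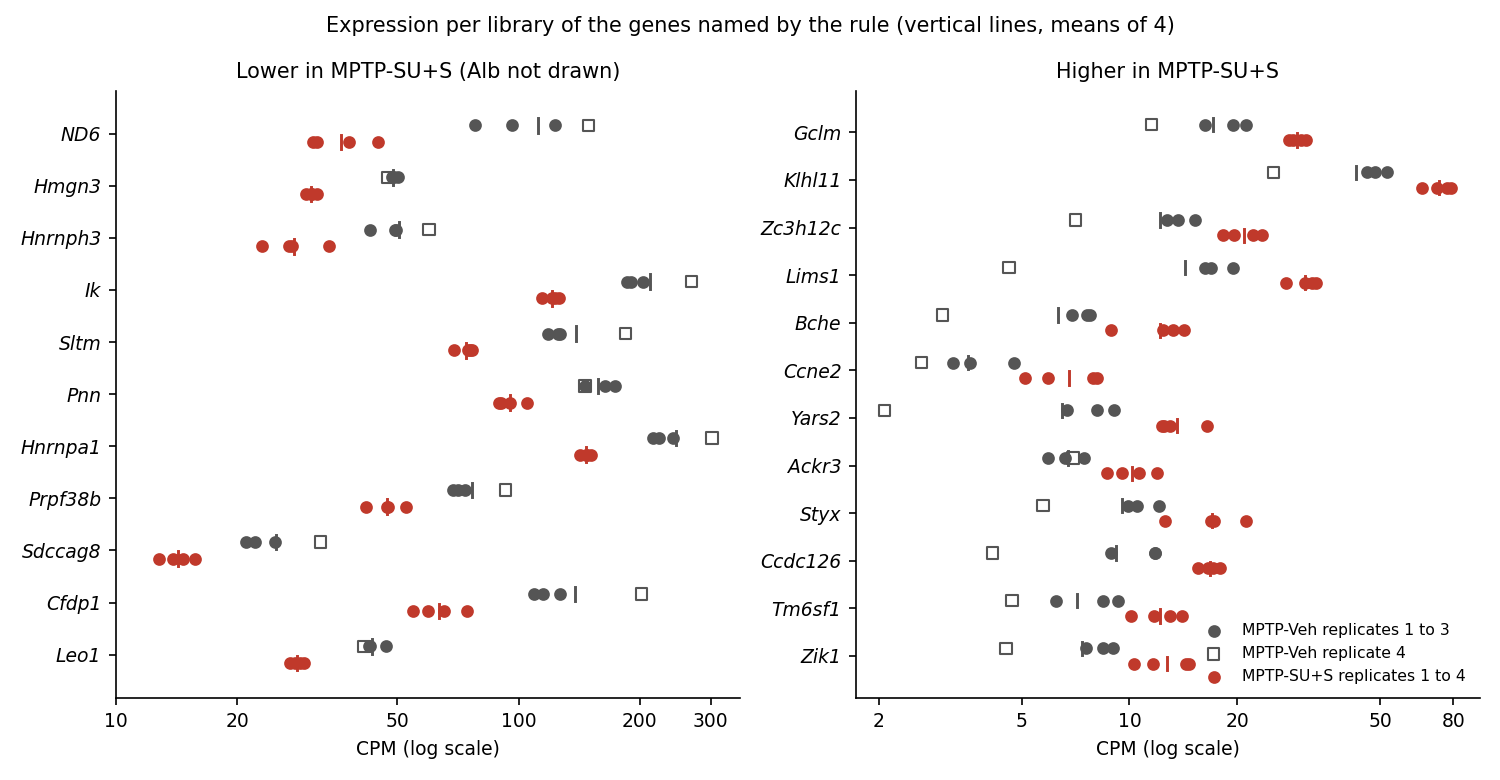
CPM on a log scale of 11 genes that fell (left) and 12 that rose (right), with grey points for MPTP-Veh, open squares for MPTP-Veh replicate 4, red points for MPTP-SU+S and vertical lines for the means of 4 libraries. The groups do not overlap for any gene drawn, and replicate 4 is the MPTP-Veh library farthest from MPTP-SU+S for all but Hmgn3, Leo1, Pnn and Ackr3.

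The lists of snoRNA host genes and long nuclear RNAs were included as signs of RNA quality, and some of their genes also fell. Their part in the lower values of the splicing genes was not tested. Of 19 snoRNA host genes, 4 fell with all libraries and 3 without replicate 4, and 9 of the 19 lay entirely below the MPTP-Veh libraries, against 8.99% of all genes tested. Ncl, which encodes nucleolin, an organizer of ribosomal RNA production, measured 488, 393, 393 and 1076 CPM in MPTP-Veh and 255, 238, 245 and 251 CPM in MPTP-SU+S. The MPTP-SU+S libraries were nearly alike, and replicate 4 was far above the other MPTP-Veh libraries. The log2 fold change was -1.25 (SE 0.22), and -0.78 (SE 0.08) without replicate 4. Gas5, a noncoding snoRNA host, went the other way in replicate 4, with 93.3, 81.0, 80.2 and 56.5 CPM in MPTP-Veh and 53.5, 48.3, 45.1 and 51.7 CPM in MPTP-SU+S. Its log2 fold change was -0.65, and -0.77 without replicate 4 (adjusted p = 0.0135 and 0.00028). Of 15 long nuclear RNAs tested, 5 fell with all libraries and 1, Gas5, without replicate 4, against 4.76% and 1.04% of all genes tested. Meg3, an imprinted noncoding RNA of neurons, had a log2 fold change of -0.91 with all libraries and -0.50 (adjusted p = 0.00284) without replicate 4, where it no longer reached a fold change of 1.5.

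Respiratory chain, ribosomal and proteasome genes were among those that fell with all libraries, but most of their calls were lost without replicate 4. Over all genes tested, 4.76% fell with all libraries and 1.04% without replicate 4, where 21.2% of all calls were made again. Of 36 nuclear complex I subunit genes, 9 fell and 0 rose with all libraries, and 2 fell without replicate 4 (Ndufa13 and Ndufb7). Ndufa13 measured 111, 114, 106 and 248 CPM in MPTP-Veh and 73.9, 74.4, 66.2 and 70.4 CPM in MPTP-SU+S (log2 fold change -1.02, and -0.63 without replicate 4). Replicate 4 was the highest library, and the other 3 MPTP-Veh libraries were still above every MPTP-SU+S library. Ndufb3, with 46.1, 43.6, 40.5 and 50.2 CPM against 32.9, 29.0, 27.8 and 29.6 CPM, had a log2 fold change of -0.54 (adjusted p = 0.00047) without replicate 4, just short of a fold change of 1.5. Of 40 subunit genes of complexes II to V, 7 fell with all libraries and 0 without replicate 4. Atp5h, a subunit of the ATP synthase stalk, had log2 fold changes of -0.70 and -0.53.

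Of 79 cytosolic ribosomal protein genes, 14 fell with all libraries and 0 without replicate 4, although 63 had lower values in either fit and 28 lay entirely below the MPTP-Veh libraries, where over all genes tested 8361 of 16629 were lower and 8.99% lay entirely below. Rpl21 measured 399, 374, 373 and 493 CPM in MPTP-Veh and 273, 251, 245 and 284 CPM in MPTP-SU+S. Its log2 fold change was -0.64 with all libraries and -0.54 (adjusted p = 0.00066) without replicate 4. Rpl14 had -0.69 and -0.45. Of 37 proteasome subunit genes, 6 fell with all libraries and 0 without replicate 4, against 4.76% and 1.04% of all genes tested. Psmd7, a subunit of the regulatory lid, had log2 fold changes of -1.05 and -0.56. The medians were -0.36 and -0.22 for complex I, -0.18 and -0.06 for complexes II to V, -0.24 and -0.17 for the ribosome and -0.24 and -0.14 for the proteasome, with and without replicate 4.

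Fewer genes rose in both fits, 42 against 158 that fell. Gclm, the modifier subunit of glutamate-cysteine ligase, the first enzyme of glutathione synthesis, measured 16.2, 19.4, 21.1 and 11.5 CPM in MPTP-Veh and 30.1, 28.5, 31.1 and 27.9 CPM in MPTP-SU+S. The highest MPTP-Veh library was below the lowest MPTP-SU+S library. The log2 fold change was 0.78 (SE 0.14, adjusted p = 0.00763), and 0.63 (SE 0.11, adjusted p = 0.00136) without replicate 4. With the GC and length trend removed, that of Gclm was 0.49 (adjusted p = 0.0112), under the fold threshold. Con libraries had a mean of 22.6 CPM. Gclm is a target of the transcription factor NRF2, which binds antioxidant response elements with the core TGACNNNGC. The RefSeq promoter of Gclm (build GRCm38.p6, chr3:122245307-122245556, plus strand, the 250 bases before the start of the gene) is shown because Gclm had the smallest p-value of the rising genes, with the 1 match to that core, on the minus strand, in capitals.
Gclm: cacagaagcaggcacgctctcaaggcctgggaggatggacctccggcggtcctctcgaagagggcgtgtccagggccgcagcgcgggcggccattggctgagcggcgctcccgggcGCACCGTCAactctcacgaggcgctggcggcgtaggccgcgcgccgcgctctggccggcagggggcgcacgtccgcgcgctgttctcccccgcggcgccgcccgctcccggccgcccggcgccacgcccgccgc
On either strand, the core is found in this window in 11.5% of all 27025 genes with a RefSeq promoter and in 6 of the 24 genes of the NRF2 and antioxidant list that have one, so a match is a description of the sequence only.

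Among the NRF2 and antioxidant genes, Gclm alone rose past the threshold. Of the 30 tested, 1 rose (Gclm) and 2 fell with all libraries, and 1 rose and 1 fell without replicate 4. Entirely above the MPTP-Veh libraries lay 7 of the 30 and entirely below lay 4, against 8.85% and 8.99% of all genes tested. Sod1, the cytosolic superoxide dismutase, fell, with 223, 198, 197 and 395 CPM in MPTP-Veh and 142, 115, 118 and 129.5 CPM in MPTP-SU+S, a log2 fold change of -1.01, or -0.71 without replicate 4. Nqo1, a quinone reductase and NRF2 target, measured 3.11, 3.60, 3.55 and 3.29 CPM in MPTP-Veh and 4.30, 4.61, 4.69 and 4.97 CPM in MPTP-SU+S. Its groups did not overlap and its adjusted p-value was 0.0301 in the fit of all libraries, but its log2 fold change of 0.45 was under the fold threshold. Without replicate 4 the log2 fold change of Nqo1 was 0.44 (adjusted p = 0.0359), also under that threshold. The median of the list was -0.06, and 0.08 without replicate 4.

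Lims1, which encodes the focal adhesion adaptor PINCH1, rose from 14.3 ± 6.61 to 30.9 ± 2.57 CPM (SD, n = 4), with a log2 fold change of 1.10, and of 0.82 without replicate 4. Klhl11, an adaptor of cullin ubiquitin ligases, measured 52.2, 45.9, 48.5 and 25.2 CPM in MPTP-Veh and 65.3, 76.7, 79.1 and 72.0 CPM in MPTP-SU+S. No MPTP-SU+S library was as low as any MPTP-Veh library, and the log2 fold change was 0.77, or 0.59 without replicate 4. Yars2, the mitochondrial tyrosyl-tRNA synthetase, rose by 1.05 on the log2 scale, Bche, butyrylcholinesterase, by 0.93, Ccne2, cyclin E2, by 0.92, and Zc3h12c, an RNA endonuclease of the regnase family, by 0.77. Without replicate 4 these 4 genes rose by 0.77, 0.71, 0.81 and 0.59. With the GC and length trend removed, their log2 fold changes were 0.97, 0.51, 0.44 and 0.44, and only Yars2 passed. Ackr3, the atypical receptor that scavenges CXCL12, was alone among the 12 rising genes in having replicate 4 inside the range of the other MPTP-Veh libraries, with 5.91, 6.61, 7.47 and 6.96 CPM against 9.56, 11.9, 10.6 and 8.68 CPM. Its log2 fold change was 0.59, and 0.61 without replicate 4 (adjusted p = 0.0251 and 0.0203). Styx, a pseudophosphatase, Ccdc126, Tm6sf1 and the zinc finger gene Zik1 rose by 0.76 to 0.86 on the log2 scale, and by 0.61 to 0.65 without replicate 4. With the GC and length trend removed, Styx had 0.31 and Zik1 0.47, and neither passed. Of 57 clustered protocadherin genes tested, which encode neuronal adhesion proteins, 1 rose in both fits, Pcdhb11, from 1.76 ± 0.342 to 3.45 ± 0.447 CPM, and 47 had positive fold changes (median 0.30), or 41 without replicate 4 (median 0.14), where 8268 of all 16629 genes were positive with all libraries.

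The cannabinoid and PPAR genes, which the antagonists of the study address, held no gene past the threshold. Over all genes tested, 5.66% passed with all libraries and 1.41% without replicate 4. Cnr1, the receptor that SR141716A blocks, measured 50.4, 35.0, 59.5 and 8.47 CPM in MPTP-Veh and 55.8, 69.3, 76.4 and 48.7 CPM in MPTP-SU+S. The groups overlapped, replicate 4 was far below all the others, and the log2 fold change of 0.70 (SE 0.35) had an adjusted p-value of 0.17. Without replicate 4 it was 0.37 (SE 0.21, adjusted p = 0.315). Cnr2, the CB2 receptor, was at 0 to 0.327 CPM and was not tested. Of the 20 endocannabinoid genes tested of 23, 0 passed in either fit (median log2 fold change 0.05, and -0.01 without replicate 4). With all libraries, the smallest adjusted p-values were those of G protein subunits that can couple CB1 to its effectors, Gnao1 (log2 fold change -0.28, adjusted p = 0.0531), Gnai3 (0.45, adjusted p = 0.0571) and Gnai2 (-0.57, adjusted p = 0.0572). Without replicate 4 their log2 fold changes were -0.21, 0.30 and -0.21. Pparg was at 0.441 to 1.29 CPM and it had a change of 0.36 on the log2 scale (SE 0.45, adjusted p = 0.58), and of 0.22 without replicate 4. Of 29 tested PPAR receptor, partner and target genes, 0 passed in either fit. Cpt1a, the mitochondrial carnitine palmitoyltransferase and a PPAR target, had a log2 fold change of 0.43 with an adjusted p-value of 0.0432, under the fold threshold, and Fabp3 had -0.32 (adjusted p = 0.064). Without replicate 4 they had 0.30 and -0.32.

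Dopaminergic neuron genes did not move together. Th, the rate-limiting enzyme of dopamine synthesis, measured 17, 70.3, 60.2 and 109.7 CPM in MPTP-Veh and 66.0, 52.0, 30.9 and 72.4 CPM in MPTP-SU+S. The MPTP-SU+S libraries lay within the range of MPTP-Veh. The log2 fold change of Th was -0.21 (SE 0.44, adjusted p = 0.75), and 0.17 without replicate 4. Slc6a3, the dopamine transporter, also overlapped between the groups (log2 fold change 0.39, SE 0.49, adjusted p = 0.589, and 0.33 without replicate 4). Of 26 dopaminergic genes, 1 fell in both fits, Sncg, a synuclein, with 41.9, 42.5, 46.6 and 192 CPM in MPTP-Veh and 34.1, 20.7, 17.3 and 23.7 CPM in MPTP-SU+S. Sncg was lower in every MPTP-SU+S library, and its log2 fold change was -1.75 with all libraries and -0.87 (adjusted p = 0.049) without replicate 4. Bdnf, a neurotrophin, differed by 0.18 on the log2 scale (SE 0.17, adjusted p = 0.452), and by 0.13 without replicate 4. Among 20 genes of inherited Parkinson's disease, 2 fell with all libraries, Park7 and Chchd2, and 0 without replicate 4, where their log2 fold changes were -0.57 and -0.36 (adjusted p = 0.00357 and 0.0198).

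Few synaptic genes passed the threshold, as was so over all genes tested (5.66% with all libraries and 1.41% without replicate 4). Of 27 GABA receptor and synthesis genes tested, 0 passed in either fit, 20 had positive log2 fold changes and 6 lay entirely above the MPTP-Veh libraries (median 0.30, and 0.12 without replicate 4), where over all genes tested 8268 of 16629 were positive and 8.85% lay entirely above. Of 18 thalamus markers, 17 were positive in the same libraries (median 0.72), and 13 without replicate 4 (median 0.48). Of these markers, 0 lay entirely above the MPTP-Veh libraries. The part of the thalamus markers in the GABA values was not tested. Gabrg3, a gamma subunit of GABA-A receptors, measured 16.8, 16.1, 15.8 and 10.6 CPM in MPTP-Veh and 17.3, 20.7, 21.9 and 22 CPM in MPTP-SU+S. Its groups did not overlap, and its log2 fold change of 0.46 had an adjusted p-value of 0.0477, under the fold threshold, and 0.34 without replicate 4 (adjusted p = 0.0786). Of 33 glutamate receptor and transporter genes, 1 rose with all libraries and 0 without replicate 4. It was Grm3, a metabotropic glutamate receptor, at a log2 fold change of 0.77 with all libraries. Without replicate 4 that of Grm3 was 0.50 (adjusted p = 0.00183), under the fold threshold. Of 37 tight junction genes tested, 1 rose and 1 fell with all libraries and 0 passed without replicate 4. The gene that rose was Cldn10, a claudin, at a log2 fold change of 0.69, and of 0.44 without replicate 4.

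Of 22 immediate early genes tested, 1 fell in both fits. It was Egr1, a transcription factor induced by neuronal activity, with 41.2, 58.0, 58.3 and 96.8 CPM in MPTP-Veh and 29.8, 40.2, 30.1 and 23.2 CPM in MPTP-SU+S (log2 fold change -1.04, and -0.77 without replicate 4). Every MPTP-SU+S library was below every MPTP-Veh library, though the nearest pair was close. Fos, of the same class, differed by -0.25 on the log2 scale (SE 0.26, adjusted p = 0.503), and by -0.21 without replicate 4. Of 22 heat shock and unfolded protein response genes, 3 fell with all libraries and 1 without replicate 4, Ddit3, the transcription factor CHOP, from 43.8 ± 25.3 to 20.2 ± 1.71 CPM. Without replicate 4, at 81.8 CPM, the MPTP-Veh mean of Ddit3 was 31.2 CPM and its log2 fold change went from -1.11 to -0.63.

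Glial and inflammatory calls were lost without replicate 4, where only 21.2% of the calls over all genes were made again. Over all genes tested, 4.76% fell with all libraries and 1.04% without replicate 4. Aif1, which encodes the microglial protein IBA1, measured 5.68, 4.91, 3.86 and 17.9 CPM in MPTP-Veh and 2.66, 3.38, 3.11 and 3.71 CPM in MPTP-SU+S. It fell with all libraries (log2 fold change -1.31, adjusted p = 0.0348) and did not pass without replicate 4 (-0.57, adjusted p = 0.1). C1qa, a complement component of microglia, went from -1.56 to -0.43, and Itgam, which encodes CD11b, from 0.43 to 0.23, with no call for Itgam in either fit. Of 20 microglia markers, 2 fell with all libraries and 0 without replicate 4. Of 17 astrocyte markers tested, 2 fell with all libraries (Sox9 and S100b) and 0 without replicate 4. Gfap measured 259, 305, 228 and 969.8 CPM in MPTP-Veh and 238, 258, 223 and 217 CPM in MPTP-SU+S, and its log2 fold change was -0.91 (adjusted p = 0.0852), or -0.18 without replicate 4. Of 30 inflammation genes tested, C3 alone passed with all libraries, at -1.74, and 0 passed without replicate 4. Mapk14, the p38α kinase, had log2 fold changes of -0.31 and 0.03.

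**Figure D4:**
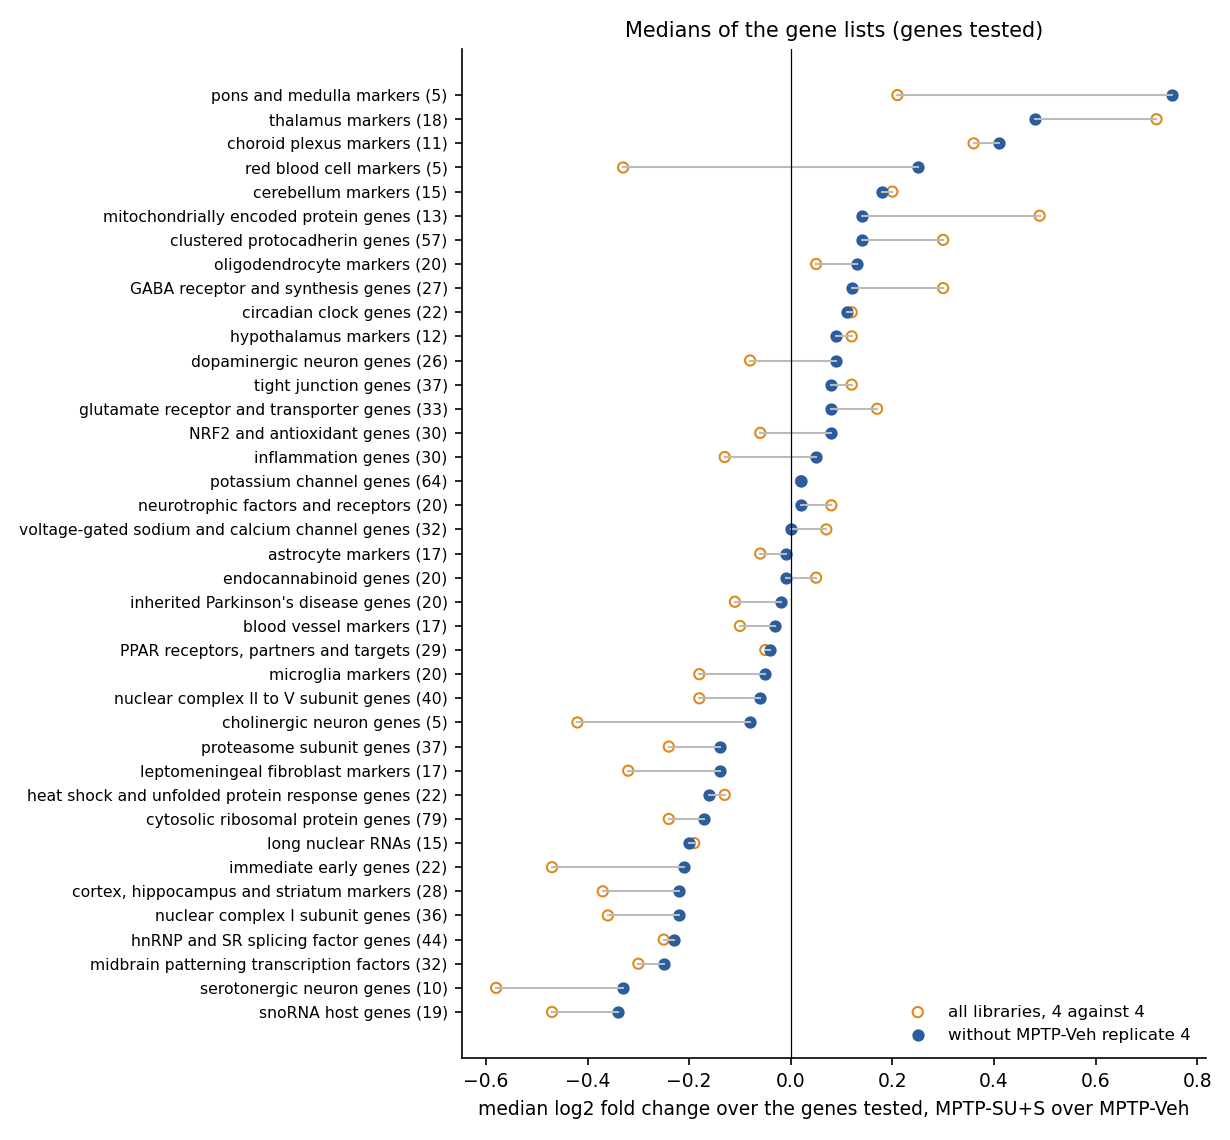
Median log2 fold change of each gene list, MPTP-SU+S over MPTP-Veh, over the genes tested (number in parentheses), with open circles for all libraries and filled circles without MPTP-Veh replicate 4. The snoRNA host, splicing factor and complex I lists lie below 0 in both fits, and the red blood cell, dopaminergic, NRF2, inflammation and endocannabinoid lists change sign between them.

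Markers of neighbouring tissues differed by list. Of 12 hypothalamus markers tested, 6 were positive and 6 negative (median 0.12, and 0.09 without replicate 4), and 1 fell, Pomc. With 1 library left out, the median of these markers ranged from -0.17 to 1.23. Pomc, a hormone precursor of the arcuate nucleus and pituitary, measured 656, 4.12, 2.59 and 3.95 CPM in MPTP-Veh and 0.755 to 1.39 CPM in MPTP-SU+S, so that its call rested on replicate 1. Without that library its log2 fold change was -1.64 (adjusted p = 0.0741). The 3 anterior pituitary markers tested were all negative (median -1.65, and -2.06 without replicate 4). With 1 library left out, this median ranged from -6.53 to -0.22. The list summed to 352 to 711 CPM in MPTP-Veh and 183 to 272 CPM in MPTP-SU+S. Chgb, described below, is on this list and made up most of each sum, at 347 to 707 CPM and 182 to 271 CPM. Of 28 cortex, hippocampus and striatum markers, 21 were negative (median -0.37, and -0.22 without replicate 4). Chgb, chromogranin B of secretory granules, fell from 458 ± 169 to 209.7 ± 41.6 CPM, and Nrgn, a forebrain calmodulin-binding protein, from 264 ± 223 to 63.6 ± 14.6 CPM, both also without replicate 4 (log2 fold change -0.84 and -1.28). Of 17 blood vessel markers, 7 were positive and 10 negative (median -0.10, and -0.03 without replicate 4). Myh11, the smooth muscle myosin, fell by 1.67 on the log2 scale, and by 1.12 without replicate 4. Alb, albumin, measured 12.4, 7.72, 9.34 and 154 CPM in MPTP-Veh, where MPTP-SU+S libraries had 0, 3, 0 and 1 counts. Of the 26 liver genes, 12 had 0 counts in all 4 MPTP-SU+S libraries. A list of 10 lung genes summed to 0.661 to 2.27 CPM in MPTP-SU+S, to 5.24 to 6.85 CPM in 3 MPTP-Veh libraries and to 54.7 CPM in replicate 4. The lists of liver and lung genes were added after their values had been seen.

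MPTP-SU+S was also compared with the MPTP-SU group, which received SUEHP alone. It was further compared with the MPTP-SU+T group, which received SUEHP with the PPARγ inhibitor T0070907 at 5 mg/kg. The first comparison holds SR141716A added to SUEHP, possibly with its injection and solvent. The second sets 1 antagonist against another, so neither isolates SR141716A. Of 16629 genes, 0 (0%) passed against MPTP-SU and 0 (0%) against MPTP-SU+T. At an unadjusted p-value below 0.05 there were 274 and 130 genes in edgeR's test. DESeq2 called 0 and 1 genes, and limma-voom called 0 in both. The half-width of the 95% interval was 0.44 on the log2 scale for the median gene in both comparisons, and the interval lay within a fold change of 1.5 in either direction for 55.3% of genes against MPTP-SU and 57.7% against MPTP-SU+T. Among the 200 genes called in both fits against MPTP-Veh, these shares were 40.5% and 33%. Differences smaller than the intervals were not detectable here.

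For the 23 genes named above by rule other than Alb, the log2 difference between MPTP-SU+S and MPTP-SU was -0.14 to 0.26, and against MPTP-SU+T it was -0.20 to 0.34. All 3 comparisons share the MPTP-SU+S libraries. ND6 was at 36.2 ± 6.53 CPM in MPTP-SU+S, 35.4 ± 4.14 CPM in MPTP-SU and 38.3 ± 4.75 CPM in MPTP-SU+T (SD, n = 4), with a log2 difference of 0.03 from MPTP-SU (95% interval -0.34 to 0.40). Gclm was at 29.4 ± 1.45, 27.8 ± 3.64 and 27.8 ± 2.02 CPM, with a difference of 0.08 (-0.21 to 0.37). Hmgn3 was at 30.6 ± 0.753, 32.8 ± 2.64 and 33.9 ± 4.11 CPM. Bche had the largest difference from MPTP-SU among them, 0.26 (-0.18 to 0.70). Cnr1 was at 62.6 ± 12.6, 66.5 ± 17.6 and 57.4 ± 9.06 CPM, with a difference from MPTP-SU of -0.09 (-0.82 to 0.64), and Th at 55.4 ± 18.4, 43.7 ± 24.3 and 63.5 ± 13.0 CPM. 

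**Figure D5:**
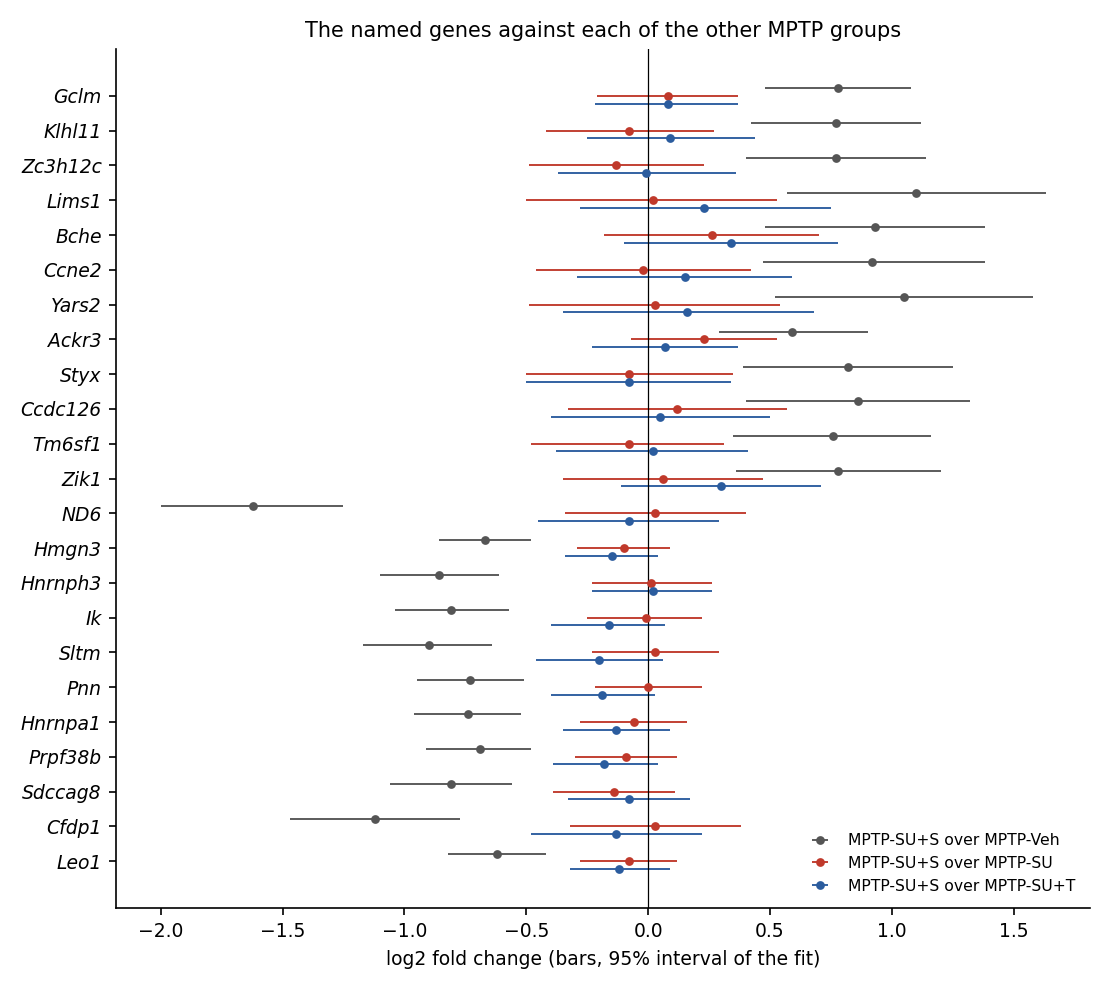
Log2 fold change with its 95% interval for 23 genes that rose (upper 12) or fell (lower 11) in MPTP-SU+S, against MPTP-Veh (grey), MPTP-SU (red) and MPTP-SU+T (blue), each with 4 samples per group. The grey intervals lie away from 0, which the choice of the genes fixes, and the red and blue intervals all include 0.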

How the data were processed

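Midbrain RNA was sequenced as poly(A) CORALL RNA-Seq V2 libraries, paired-end, on an Illumina NovaSeq. Per the labels and methods, the authors used fastp, STAR and Salmon (build GRCm39 in the submitters' processing notes, which also name GATK). Annotation and versions are not given in the sources used here. The RNA kit is TaKaRa RNAiso Plus in the labels and Easy-Spin in the methods. The deposited values are estimated counts per gene symbol, as whole numbers, for 40213 symbols and 11958200 to 16639823 counts per midbrain library. Near-identical copies may share reads. Genes are given by symbol, without coordinates other than those of the RefSeq promoter.

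Counts of all 20 midbrain libraries (5 groups of 4) were fitted in 1 model with edgeR 4.0.16 in R 4.3.3 (filterByExpr, TMM, quasi-likelihood test, Benjamini-Hochberg over all genes tested), where 16629 symbols passed the filter. Genes called had to exceed a fold change of 1.5 at an adjusted p-value under 0.05. CPM uses TMM library sizes, and ± is the SD. The fit without MPTP-Veh replicate 4 used the other 19 libraries. The scripts were tested on simulated data. GC content and length came from GENCODE M21 transcripts, for 93.2% of genes. The members, the 40 gene lists and the tests were chosen with earlier results of these data known.

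The genes named are, by smallest p-value, 12 that rose and 12 that fell and that passed in the same direction with and without MPTP-Veh replicate 4, had no overlap between groups and reached a mean of 5 CPM in the higher group (predicted genes counted, not named), with Cnr1, Cnr2, Pparg, Th, Slc6a3, Bdnf, Fos, Itgam, Aif1, Gfap and Mapk14, and up to 4 members of each list with the smallest p-values, some of which are left out. Alternatives were RLE size factors, DESeq2 1.42.0, limma-voom (limma 3.58.1), other filters, the 8 libraries of a comparison alone, mitochondrial and haemoglobin genes left out, an adjusted p-value alone, a GC and length trend removed, a replicate block and each library left out. DESeq2 and limma-voom without MPTP-Veh replicate 4, and MPTP-Veh without replicates 1 and 4, were chosen after seeing the data. Spinal cord samples were not used here.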

Additional observations from a re-analysis of the deposited data

Results flagged for a closer look

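In 156 groups of 4 libraries, made of 69 genes and the summed marker lists, 31 had a highest or lowest library whose distance from the nearest other was over Dixon's 95% limit. Chance alone gives about 5 in 100 for independent groups not chosen from the data. Many of these genes and lists were chosen from these data, and all groups share the same few libraries. That rate is therefore no benchmark here. Of the 31 flagged, 27 were MPTP-Veh replicate 4. It was lowest for Itgam (5.18 CPM) and Gabrg3 (10.6). It was highest for the nuclear and RNA-binding genes Sltm (184 CPM), Hnrnpm (362), Ncl (1076) and Meg3 (8919.5), and for the respiratory chain genes Ndufa13 (248), Ndufa5 (231), Ndufb7 (406) and Chchd2 (427). It was also highest for Rpl14 (433 CPM), Psmd7 (307), Sod1 (395), Ddit3 (81.8), Sncg (192) and Park7 (329). Of glial and inflammatory genes it was highest for Aif1 (17.9 CPM), C1qa (109), C3 (26), Gfap (969.8), Sox9 (123) and S100b (1019). Alb stood at 154 CPM there, and the summed markers at 533 CPM for liver, 54.7 for lung, 37777 for oligodendrocytes and 2529 for red blood cells.

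MPTP-Veh replicate 1 stood apart for Pomc (656 CPM) and for the summed hypothalamus markers (697 CPM), most of which were Pomc. MPTP-Veh replicate 3 stood apart for Bdnf (22.1 CPM) and MPTP-SU+S replicate 1 for Yars2 (16.5 CPM).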

How the results depend on the processing

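The number of genes past the threshold between MPTP-SU+S and MPTP-Veh, 942, ranged from 69 to 2475 when 1 library was left out. It was 1605 with DESeq2, 402 with limma-voom, 0 with the 8 libraries alone and 215 when MPTP-Veh replicate 4 was also left out of those. Alternatives chosen after seeing the data gave 202 (DESeq2) and 230 (limma-voom) without MPTP-Veh replicate 4, and 107 when both MPTP-Veh replicates 1 and 4 were left out. With other size factors, filters or the GC and length trend removed, it stayed within 1.5 times. A replicate block gave 546 genes, and same-numbered libraries correlated at -0.11 to 0.23, so the numbers were not taken as pairs. Against MPTP-SU the count was 0 in every setting run for it, and against MPTP-SU+T it was 0 in all but DESeq2, which called 1. In the fits that left out an MPTP-Veh library, neither comparison was counted. Of genes not past the threshold, Th (-0.21) turned to 0.16 with 7 libraries alone, 0.09 with the GC and length trend removed, 0.01 with the replicate block, 0.24 with both, and, without MPTP-Veh replicate 4, 0.17 with DESeq2 and 0.31 with limma-voom, and ranged from -0.53 to 0.17 with 1 library left out. Bdnf (0.18) turned to -0.17 with the GC and length trend removed, with or without the replicate block, and Slc6a3 (0.39) to -0.11 without MPTP-Veh replicates 1 and 4. With 1 library left out, Bdnf ranged from 0.09 to 0.38 and Slc6a3 from 0.08 to 0.65. Mapk14 (-0.31) was 0.03 without MPTP-Veh replicate 4 in edgeR, with the other 19 libraries or 7 libraries alone, and in DESeq2. It was 0.04 in limma-voom without that replicate and 0.10 without MPTP-Veh replicates 1 and 4. With 1 library left out, Mapk14 ranged from -0.44 to 0.03. The causes were not tested.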

Other observations

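Other neuronal lists held 1 or 2 calls that were lost without MPTP-Veh replicate 4. Of 32 patterning transcription factors and 10 serotonergic neuron genes tested, 1 fell with all libraries, Gata3, which is on both lists. Their medians were -0.30 and -0.58, and -0.25 and -0.33 without replicate 4. Of 64 potassium channel genes, Kcnk3 fell, and of 32 voltage-gated sodium and calcium channel genes, Cacng4 and Cacng7 fell, with medians of 0.02 and 0.07, and of 0.02 and 0 without replicate 4. Of the 18 thalamus markers, Calb2 alone passed the threshold with all libraries, and fell.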
